A study of Mus musculus with 66 samples.

Results

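The miR-34 family was examined in mouse plasma through its 6 mature members, which are both arms (5p and 3p) of the hairpins miR-34a, miR-34b and miR-34c. The members were taken by name, and all 6 had a row among the 1826 miRNAs of the C3H table and among the 1885 miRNAs of the F2 table. The C3H table holds 13 male C3H mice bled by cardiac puncture at necropsy, all labelled as more than 12 months after radiation, of which 8 had hepatocellular carcinoma (HCC) and 5 did not (non-HCC). By the study's methods the HCC group holds both spontaneous tumors, which are the majority, and radiation-induced ones. The shared label thus does not show that each of the 13 mice was irradiated. Labels do not tell which HCC mouse had which tumor origin, so any split of the 8 by origin was not tested. The F2 table holds 53 plasma libraries from irradiated second-generation offspring of C3H and BALB/c mice of both sexes that later had HCC, drawn from the tail vein 1, 6, 12 or 18 months after radiation. By the labels, 15 mice gave these 53 samples in repeated bleeds, so the libraries are not independent. The column names of this table do not tell which mouse or time a library came from, so only the spread over the 53 libraries is given. Small RNA was sequenced with unique molecular identifiers (UMIs), short random tags that let amplified copies of a molecule be counted once. A UMI count is therefore a count of captured molecules, and the lowest value listed above 0 in both tables was 10, so a member listed at 0 may have had up to 9 UMIs.

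The miR-34 genes are known as direct transcriptional targets of the tumor suppressor p53, and their mature 5p arms repress regulators of the cell cycle and of cell survival. Mir34a is transcribed on its own and is the widely expressed gene of the family. Mir34b and Mir34c share a primary transcript and are best known from multiciliated epithelia and from testis, where the related miR-449 genes are also expressed. In miR-34a the 3p arm is the strand that is less often loaded into the silencing complex. Neither p53 nor any tissue RNA was measured in these files.

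The mature sequences are shown because the seed, bases 2 to 8 from the 5′ end, sets which targets a miRNA can pair with and decides which members are alike. They are from RefSeq on GRCm38.p6, with 5 of the 6 members matched in the table used, and capitals mark the seed. The sequence of miR-34c-5p was not analysed here. The first 2 members below and miR-449a-5p and miR-449c-5p carry 1 seed, GGCAGUG, and no other of the 1679 mature sequences searched does. MiRNAs without a sequence in that search, miR-34c-5p among them, were not checked for the seed.
mmu-miR-34a-5p: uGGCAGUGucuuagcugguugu
mmu-miR-34b-5p: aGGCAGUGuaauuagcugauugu
mmu-miR-449a-5p: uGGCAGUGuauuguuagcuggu
mmu-miR-449c-5p: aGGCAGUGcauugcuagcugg
mmu-miR-34a-3p: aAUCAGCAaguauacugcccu
mmu-miR-34b-3p: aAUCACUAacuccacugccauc
mmu-miR-34c-3p: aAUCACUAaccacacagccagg

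Among the 3p arms, miR-34b-3p and miR-34c-3p carried the same seed and shared 17 of 22 bases position by position, while miR-34a-3p had a seed of its own. MiR-34a-5p shared 15 of 22 bases with miR-449a-5p and 11 of 22 with miR-34b-5p in the same alignment without gaps. Reads were assigned to members by the authors, and how reads with mismatches between such similar arms were assigned is not given in the sources used here. On GRCm38 the Mir34a gene lies at chr4:150068454-150068555 on the plus strand, where its last 17 bases overlap an exon of the unclassified transcript Gm37795 on the same strand. Mir34c (chr9:51103034-51103110) and Mir34b (chr9:51103562-51103645) lie on the minus strand of chromosome 9 with 451 bases between them, both in an intron of Btg4 on the opposite strand. The arms map inside these genes, with miR-34a-5p at chr4:150068473-150068494, miR-34a-3p at chr4:150068517-150068537, miR-34b-5p at chr9:51103610-51103632, miR-34b-3p at chr9:51103574-51103595 and miR-34c-3p at chr9:51103044-51103065.

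The C3H libraries held between 9513136 and 14247488 miRNA UMIs, so depth differed little between mice. UniSP2 and UniSP4, synthetic miRNAs added to each plasma sample before extraction, differed more. UniSP2 counts spanned 165794 to 938898 UMIs with HCC and 364466 to 731761 without, and it was lowest in HCC mice 5, 2 and 6 with 165794, 175009 and 285564 UMIs. UniSP4 counts were far lower, from 225 UMIs in HCC mouse 2 to 1008 in HCC mouse 7. The mean of both spike-ins therefore follows UniSP2 almost alone. Levels scaled by the spike-ins are raised in these 3 mice for all miRNAs. In addition, 3 pairs of HCC libraries were closer to each other than any 2 non-HCC mice, namely mice 1 and 6, mice 2 and 5, and mice 3 and 7. Over the 170 miRNAs with a mean of at least 1000 UMIs, the SD of their log2 difference was 0.147 to 0.264, against 0.351 to 0.834 between non-HCC mice and at least 0.872 between any other HCC mice. Counts of these alike libraries still differed by far more than counting noise, with a chi-square of 146 to 391 per miRNA. At these counts that cannot tell 2 mice from 2 libraries of 1 mouse. The labels name 8 mice, so the 8 were kept as 8. Fold changes and ratios of members within a mouse are also given with the 3 pairs summed, which leaves 5 HCC units. The source of the likeness was not tested.

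MiR-34a-5p was the dominant member of the family in plasma. The 8 HCC mice, numbered 1 to 8, had 8173, 7681, 929, 3531, 8988, 7026, 1295 and 1254 UMIs. The 5 non-HCC mice, numbered 1 to 5, had 1238, 2105, 977, 1552 and 1653 UMIs. HCC mice 1, 2, 4, 5 and 6 exceeded the highest non-HCC mouse, HCC mice 7 and 8 lay among them, and HCC mouse 3 lay below them, so the groups overlapped. In plasma, fewer releasing cells and fewer molecules released per cell cannot be told apart. The 5 high mice comprise 2 of the alike pairs and mouse 4, and the 3 low mice comprise the other pair and mouse 8.

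The same 5 high and 3 low HCC mice were seen after scaling. Expressed as CPM, the UMIs of a miRNA in each 1000000 miRNA UMIs of its library, miR-34a-5p averaged 414 ± 295 (SD, n = 8) with HCC against 118 ± 21.1 (SD, n = 5) without. It ran from 88.9 to 132 CPM in the 3 low HCC mice and from 281 to 800 CPM in the 5 high ones. On the spike-in scale, as log2 of the UMIs plus 1 divided by the relative spike-in amount, the level was 9.77 or less in the 3 low HCC mice and 12.12 or more in the 5 high ones, a gap of 2.35. Here HCC mouse 7 (9.37) as well as mouse 3 (8.99) lay below each non-HCC mouse (9.53 to 11.08). Among HCC mice the relative spike-in amount was highest in the 3 low ones, which lowers their levels on this scale and widens the gap. On both scales the spread was far wider in HCC mice than in non-HCC mice.

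The plot of UMIs by mouse sets miR-34a-5p beside the other members on 1 axis.

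**Figure D1:**
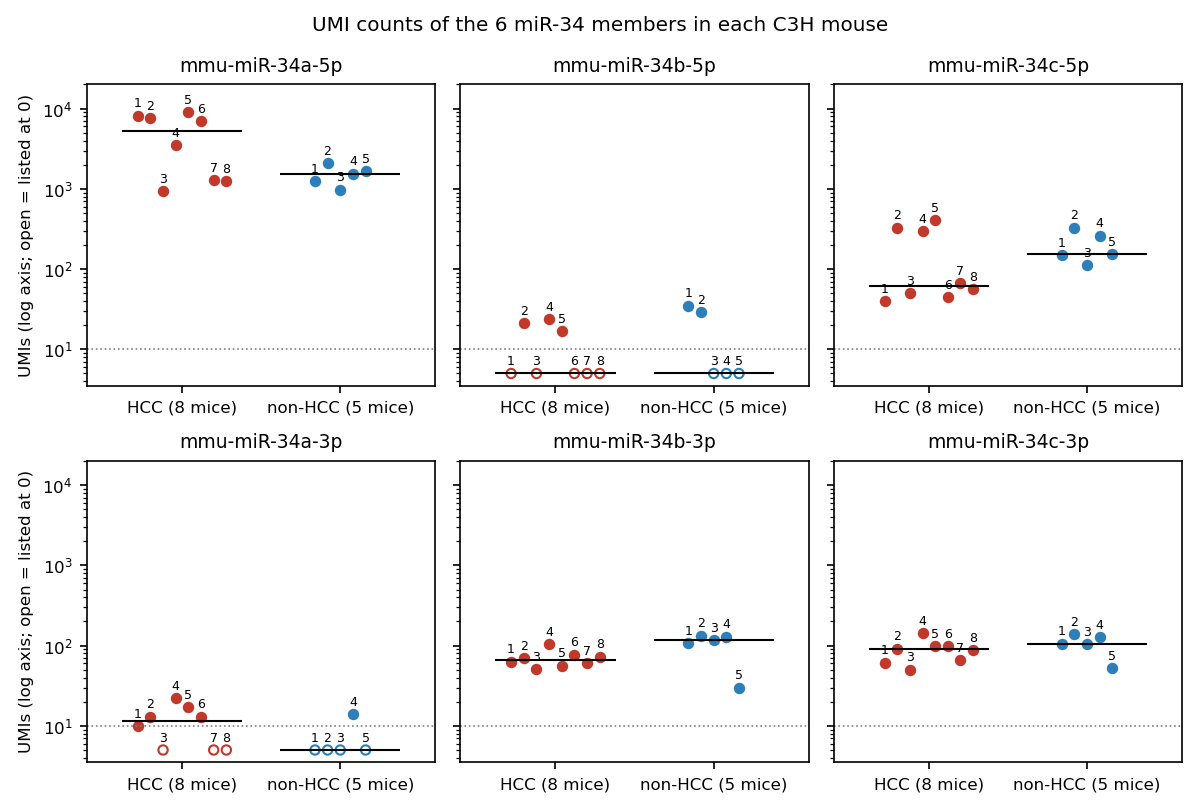
UMI counts (log axis) of the 6 miR-34 members in each of 8 HCC and 5 non-HCC C3H mice, with the mouse number at each point, a black line at the group median and open points for values listed at 0. MiR-34a-5p lies between 929 and 8988 UMIs, above the highest value of any other member (411 UMIs), and splits the HCC mice into 5 high and 3 low.

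In the test across all miRNAs, miR-34a-5p did not pass the threshold. The log2 fold change of HCC over non-HCC was 2.81 ± 0.90 (SE), with an adjusted p of 0.058 by edgeR's quasi-likelihood test with Benjamini-Hochberg adjustment, just short of 0.05. None of the 6 members passed, where 109 of 1452 tested miRNAs (7.51%) were higher in HCC and 0 were lower. MiR-34a-5p was also the only member with an unadjusted p under 0.05 (0.0045), and 280 miRNAs were higher and 3 lower at that unadjusted threshold. The exact two-sided permutation test over all 1287 divisions of the mice gave p = 0.127 for its spike-in level and p = 0.0575 for its CPM.

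The call for miR-34a-5p turned on the library scale, the test used, the filter and single mice. With total miRNA UMIs as the scale, the log2 fold change was 1.81 ± 0.53 (SE) with an adjusted p of 0.037 in edgeR, where 123 of 1452 miRNAs (8.47%) were higher. It passed with UniSP4 alone (adjusted p of 0.042, edgeR), without a filter on low counts (0.042, edgeR) and with DESeq2 on either kind of size factor (0.0077 with its own and 0.0036 with spike-in factors). It did not pass with TMM factors (1.79 ± 0.58, SE, adjusted p of 0.063, edgeR), nor with limma on log2 values (1.74 ± 0.82, SE, adjusted p of 0.301). The pairs summed gave 2.57 ± 0.85 (SE) with an adjusted p of 0.081 in edgeR. Leaving out HCC mouse 3, 7 or 8, the 3 low ones, brought the adjusted p in edgeR to 0.021, 0.022 and 0.031. It did not pass without any of the other 10 mice, with an adjusted p in edgeR of up to 0.149 without non-HCC mouse 3.

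The passenger arm miR-34a-3p was near the limit of detection. It was listed at 10, 13, 0, 22, 17, 13, 0 and 0 UMIs in HCC mice 1 to 8, and at 0 in 4 of 5 non-HCC mice with 14 UMIs in non-HCC mouse 4. The 5 HCC mice in which it was listed are the 5 with high miR-34a-5p. Its edgeR log2 fold change of 2.90 ± 1.80 (SE, adjusted p of 0.424, edgeR) rests on values of 22 UMIs or less, and it went to 7.32 without non-HCC mouse 4 (adjusted p of 0.090, edgeR), since the remaining controls were all at 0. With the pairs summed it was 2.82 ± 1.91 (SE, adjusted p of 0.488, edgeR).

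The balance of the miR-34a arms was compared within each mouse, which removes the library scale. The log2 ratio of miR-34a-5p over miR-34a-3p, with 1 UMI added to each, averaged 9.29 ± 0.99 (SD, n = 8) with HCC against 9.73 ± 1.75 (SD, n = 5) without. The difference of the means was -0.44, with an exact two-sided permutation p of 0.571. In 7 of 13 mice the 3p arm was listed at 0, so those ratios are set by the added UMI. With 9 UMIs added the difference was 0.65 with an exact permutation p of 0.175, and without non-HCC mouse 4 it was -1.19 with an exact permutation p of 0.040. With the alike pairs summed it was -0.32 with an exact permutation p of 0.730.

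The members of the miR-34b/c transcript were at far lower counts, and none passed the test. MiR-34c-5p had 40, 329, 50, 296, 411, 45, 67 and 56 UMIs in HCC mice 1 to 8. It had 149, 330, 113, 261 and 153 UMIs in non-HCC mice 1 to 5. HCC mice 2, 4 and 5 thus lay in or above the non-HCC range, while the other 5 HCC mice lay below each non-HCC mouse. In CPM it averaged 12.6 ± 10.7 (SD, n = 8) with HCC against 15.7 ± 5.68 (SD, n = 5) without.

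The low miR-34c-5p mice were only in part those with low miR-34a-5p. HCC mice 1 and 6 had 8173 and 7026 UMIs of miR-34a-5p, among the highest, with 40 and 45 UMIs of miR-34c-5p, the lowest counts of all 13 mice. HCC mice 3, 7 and 8 were low for both. Mice 1 and 6 are 1 of the alike pairs, as are mice 3 and 7, and the 2 mice of each pair lay close together in UMIs for both members. On the spike-in scale miR-34c-5p was lowest in HCC mice 3 and 7 (4.80 and 5.11), with mice 1 and 6 at 5.15 and 6.27. HCC mice 2, 4 and 5 (9.82, 8.55 and 10.21) then exceeded each non-HCC mouse (at most 7.84). MiR-122-5p took 409797 and 427019 CPM in HCC mice 1 and 6, and its part in their low counts was not tested.

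MiR-34b-3p was in the range of 51 to 104 UMIs in HCC mice, with a median of 66.5, and 108, 133, 117, 129 and 30 UMIs in non-HCC mice 1 to 5. MiR-34c-3p, which has the same seed, was in the range of 50 to 143 UMIs in HCC mice, with a median of 90.0, and 106, 139, 104, 127 and 52 UMIs in non-HCC mice. For both, the groups overlapped and non-HCC mouse 5 stood below the other non-HCC mice. MiR-34b-5p was listed only in HCC mice 2, 4 and 5 (21, 24 and 17 UMIs) and non-HCC mice 1 and 2 (35 and 29 UMIs). In each of the 13 mice it had fewer UMIs than miR-34b-3p. The 3 HCC mice with miR-34b-5p listed were those with high miR-34c-5p.

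On the spike-in scale, the log2 fold changes from edgeR were 1.02 ± 0.88 (SE) for miR-34c-5p, 0.66 ± 0.63 for miR-34c-3p, 0.93 ± 1.68 for miR-34b-5p and 0.29 ± 0.58 for miR-34b-3p, with adjusted p of 0.641, 0.671, 0.889 and 0.904. The median over all 1452 tested miRNAs was 0.78 on that scale, so these 4 members lay near it, while both miR-34a arms lay above it. The direction of all 4 depended on the scale. With total miRNA UMIs, where the median of all miRNAs was 0.37, they were -0.31 ± 0.52, -0.18 ± 0.32, -0.86 ± 1.75 and -0.47 ± 0.36 (SE) in the same order, and the fold changes were also below 0 with TMM factors and with DESeq2's own size factors. With the pairs summed on the spike-in scale they lay between 0.24 and 0.91, with adjusted p of 0.649 to 0.900 in edgeR. No direction can be stated for the miR-34b/c arms in these mice. The plot of fold changes shows both miR-34a arms above 0 under the 3 scales drawn.

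**Figure D2:**
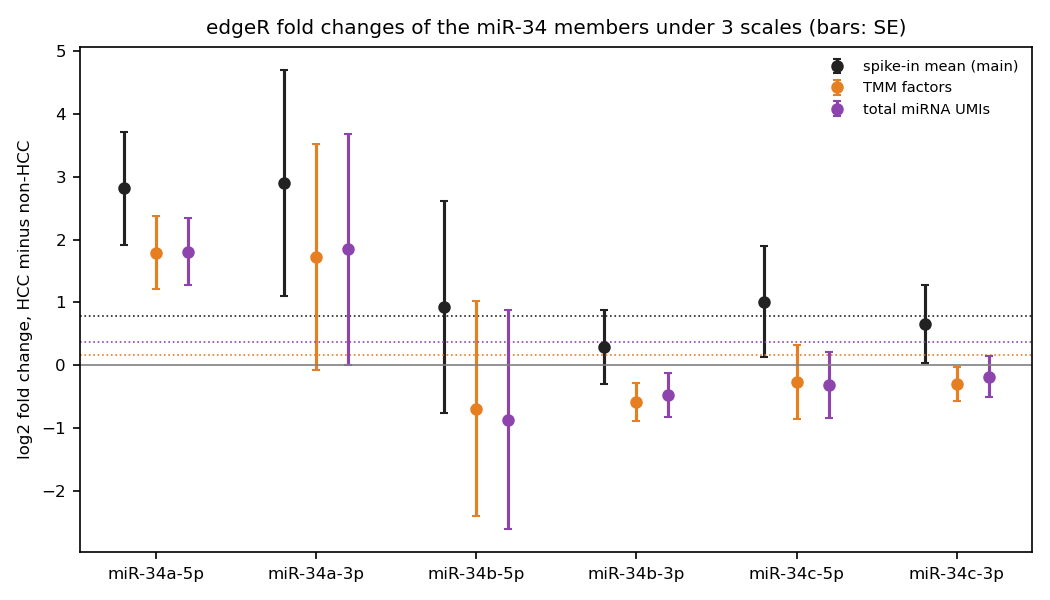
Log2 fold change of HCC over non-HCC (8 against 5 mice, edgeR, bars are SE) of each member with the spike-in mean, TMM factors or total miRNA UMIs as the library scale, with dotted lines at the median of all 1452 tested miRNAs under each scale. MiR-34a-5p lies between 1.79 and 2.81, and the 4 miR-34b/c arms are above 0 on the spike-in scale and below 0 on the other scales.

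Ordered by their mean CPM in non-HCC mice, miR-34a-5p (118 ± 21.1, SD, n = 5) came first and miR-34c-5p (15.7 ± 5.68) next, followed by miR-34c-3p (8.56 ± 2.71), miR-34b-3p (8.47 ± 3.60), miR-34b-5p (1.06 ± 1.50) and miR-34a-3p (0.207 ± 0.463). In HCC mice the order was miR-34a-5p (414 ± 295, SD, n = 8), miR-34c-5p (12.6 ± 10.7), miR-34c-3p (7.56 ± 2.37), miR-34b-3p (6.11 ± 1.64), miR-34a-3p (0.774 ± 0.689) and miR-34b-5p (0.575 ± 0.815). In both groups miR-34c-3p and miR-34b-3p lay within 1 SD of each other, as did miR-34b-5p and miR-34a-3p at the floor. The mature members are 21 to 23 bases long, so no scaling by length was applied.

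To compare miR-34a with the miR-34b/c transcript without a library scale, the UMIs of the arms were summed for each hairpin within a mouse. MiR-34a gave 98.0, 93.8, 86.0, 86.2, 93.9, 97.0, 87.0 and 85.2% of the family's UMIs in HCC mice 1 to 8. It gave 75.7, 76.9, 74.5, 75.2 and 87.6% in non-HCC mice 1 to 5. The highest non-HCC mouse lay among the HCC mice, and the other 4 lay below all of them. The 95% Wilson interval of a single mouse's share spanned at most 4.71 percentage points, which covers counting error only.

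As a log2 ratio of the sums, with 1 UMI added to each, miR-34a over miR-34b/c averaged 3.63 ± 1.20 (SD, n = 8) with HCC against 1.86 ± 0.53 (SD, n = 5) without. The difference of the means was 1.76, with an exact two-sided permutation p of 0.0085. Only 4 of 8 HCC mice exceeded the highest non-HCC mouse, so the groups overlapped. With the 3 pairs summed the difference was 1.55 with an exact permutation p of 0.032 (5 against 5). Without each mouse in turn the exact permutation p ran from 0.010 to 0.032.

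The rise of miR-34a against miR-34b/c was not particular to miR-34a. When each of the 1448 tested miRNAs outside miR-34b/c was set over the same miR-34b/c sum, 276 (19.1%) were higher in HCC mice at an exact permutation p under 0.05. The median difference over them was 0.51, and 241 had a larger difference than the 1.76 of miR-34a-5p. The ratio thus shows unequal change within the family and does not tell which hairpin changed.

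The summed counts give the parts of that ratio. MiR-34a had a median of 5296 UMIs in HCC mice, from 929 to 9005, against 1566 in non-HCC mice, from 977 to 2105. MiR-34b and miR-34c together had a median of 218.5 UMIs in HCC mice, from 151 to 582, against 398 in non-HCC mice, from 235 to 631. Neither sum alone separated the groups, with an exact permutation p of 0.0676 for the miR-34a UMIs and 0.352 for the miR-34b/c UMIs. In HCC mice 1, 2, 5 and 6 the ratio was high together with high miR-34a, while in mice 3, 7 and 8 it was 2.61, 2.74 and 2.53 with miR-34a at non-HCC levels and few miR-34b/c UMIs, and mouse 4 had 2.65 with both sums high.

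A ratio of the abundant arms, chosen after the values were seen, separated the groups. The log2 ratio of miR-34a-5p over miR-34c-5p averaged 5.04 ± 1.52 (SD, n = 8) with HCC against 2.96 ± 0.35 (SD, n = 5) without. Its exact two-sided permutation p was 0.0085, a description only, since the arms were picked with the values known. The ratios of the 8 HCC mice, 3.57 to 7.64, did not overlap those of the 5 non-HCC mice, 2.57 to 3.42. Of 1451 tested miRNAs set over miR-34c-5p in this way, 63 (4.34%) had no overlap with all HCC mice on the higher side. With the pairs summed the 5 HCC units also lay above all 5 non-HCC mice. HCC mice 1 and 6, an alike pair, had the highest ratios.

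**Figure D3:**
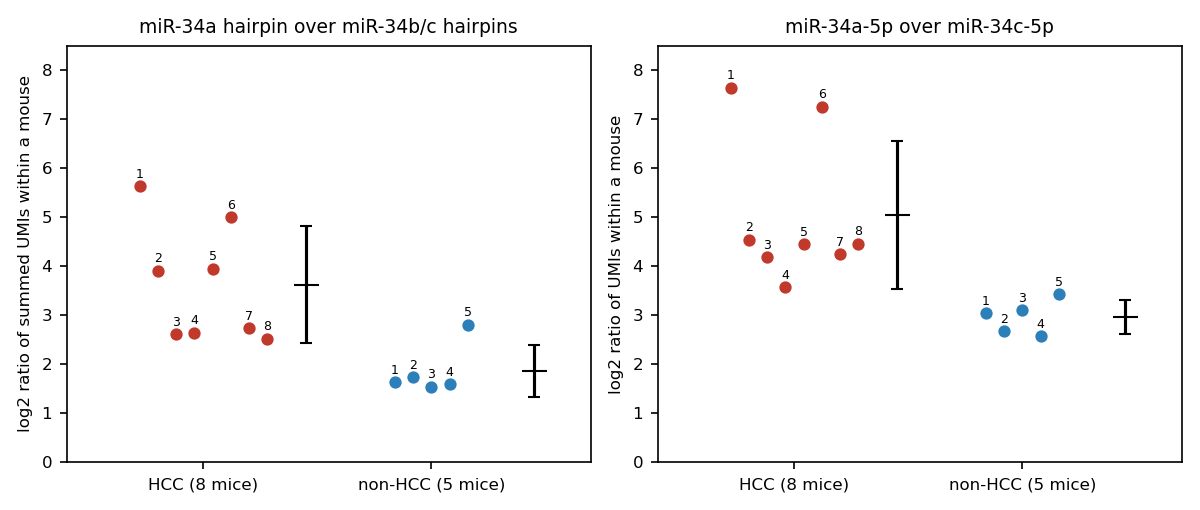
Log2 ratio within each mouse of the summed miR-34a UMIs over the summed miR-34b and miR-34c UMIs (left) and of miR-34a-5p over miR-34c-5p (right), in 8 HCC and 5 non-HCC mice, with mouse numbers and the group mean ± SD at the side. The group means are 3.63 and 1.86 on the left, where non-HCC mouse 5 lies among the HCC mice, and 5.04 and 2.96 on the right, where the groups do not overlap.

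MiR-449a-5p, which carries the seed of miR-34a-5p, was high and low in the same HCC mice as miR-34c-5p, and differed from miR-34a-5p in this respect in HCC mice 1 and 6. MiR-449a-5p had 24, 225, 69, 169, 262, 24, 101 and 67 UMIs in HCC mice 1 to 8 and 129, 337, 185, 231 and 332 UMIs in non-HCC mice 1 to 5. HCC mice 2, 4 and 5 were again the high ones, and the other 5 lay below each non-HCC mouse. MiR-449c-5p reached at most 37 UMIs with HCC and had 24 to 48 UMIs without. In edgeR neither passed, at 0.04 ± 0.81 (SE, adjusted p of 0.994) and 0.04 ± 0.94 (SE, adjusted p of 0.995), and miR-449a-5p went to -1.01 ± 0.45 (SE, adjusted p of 0.199) with total miRNA UMIs. Of the list of 5 multiciliated and germ cell miRNAs, the miR-449 arms, 3 were tested and 0 passed, with a median log2 fold change of 0.04 against 0.78 over all tested miRNAs.

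**Figure D4:**
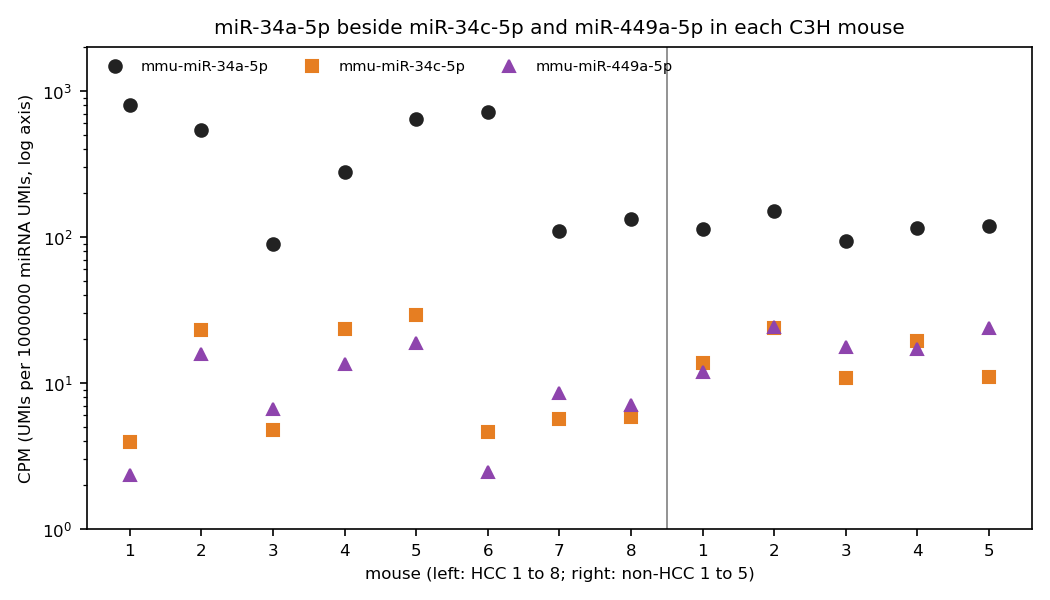
CPM (UMIs per 1000000 miRNA UMIs, log axis) of miR-34a-5p, miR-34c-5p and miR-449a-5p in each of the 8 HCC mice (left of the line) and 5 non-HCC mice (right). MiR-34a-5p runs from 88.9 to 800.4, while miR-34c-5p and miR-449a-5p are high together in HCC mice 2, 4 and 5 and lowest together in HCC mice 1 and 6.

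Other miRNAs linked to p53 were taken as a list of 10, of which 9 were tested. Of these, 2 were higher in HCC and 0 were lower by edgeR, where 7.51% of all tested miRNAs were higher. They were miR-192-5p, with a log2 fold change of 4.51 ± 0.87 (SE, adjusted p of 0.0057, edgeR), and miR-194-5p, with 3.87 ± 0.91 (SE, adjusted p of 0.013, edgeR), and both also stand on the list of liver miRNAs, since they are abundant in hepatocytes. Both also passed with TMM factors, total miRNA UMIs, DESeq2's own size factors and limma, while 1 of the 9 was lower with TMM factors or total miRNA UMIs. DESeq2 called 4 higher and 2 lower with its own size factors and 4 higher and 0 lower with spike-in factors. The miR-143/145 arms, known from smooth muscle and stroma, were at 1.73 ± 0.78 for miR-143-3p, 1.87 ± 0.73 for miR-145a-5p and 2.24 ± 0.83 (SE) for miR-145a-3p, with adjusted p of 0.225, 0.135 and 0.112 in edgeR. MiR-215-5p, a close relative of miR-192-5p, had -0.0029 ± 0.54 (SE, adjusted p of 0.999, edgeR), and miR-107-3p, miR-16-5p and miR-15a-5p were between -0.46 and -0.13. The median of the 9 was 1.73, against 0.78 over all tested miRNAs.

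Liver miRNAs had the larger fold changes. Of the 5 on the list 4 passed as higher, against 7.51% of all tested miRNAs, with a median log2 fold change of 4.51 against 0.78, and a range of summed levels of 17.85 to 23.79 with HCC and 16.09 to 17.54 without. MiR-122-5p, the most abundant miRNA of hepatocytes, had a log2 fold change of 7.34 ± 1.17 (SE, adjusted p of 0.0030, edgeR). Per 1000 UMIs of miR-122-5p, miR-34a-5p had 0.742 to 4.58 UMIs with HCC and 22.03 to 63.71 UMIs without. All HCC mice thus lay below all non-HCC mice in this ratio, which was chosen after the values were seen and is not tested, since miR-122-5p alone already separates the groups. How many other miRNAs separate the groups when set over miR-122-5p was not counted, so the separation is no trait of miR-34a-5p. HCC mouse 8, which was low for miR-34a-5p, had the lowest ratio.

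Blood cell miRNAs were examined through 2 lists. Of 6 red cell miRNAs and 5 miRNAs of platelets and leukocytes 0 passed in either direction by edgeR with the spike-in mean, with medians of -0.54 and -0.69. Of the 5 platelet and leukocyte miRNAs 1 was lower with UniSP4 alone or with DESeq2 on spike-ins. With TMM factors, total miRNA UMIs or DESeq2's own size factors 4 of them were lower. Of the 6 red cell miRNAs 1 was lower with total miRNA UMIs or with DESeq2's own size factors. The summed level of the red cell list spanned 19.38 to 22.95 with HCC and 21.40 to 22.71 without, and that of platelets and leukocytes 16.41 to 19.01 and 17.65 to 19.78. The part of the blood cell, liver and multiciliated lists in the miR-34 values was not tested.

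The miRNAs whose spike-in levels were most like those of miR-34a-5p over the 13 mice were miR-7219-3p (Pearson r of 0.98), miR-345-3p (0.98), miR-28a-3p (0.98), miR-30a-3p (0.98) and miR-3967 (0.98). None of them passed the edgeR test between groups. The median r of all 1451 miRNAs with miR-34a-5p was 0.51 on this scale, which all points share, the 5 high HCC mice lie apart from the other mice, and the alike HCC pairs count double, so these values are descriptions only. Among the members, miR-34a-3p had an r of 0.90, miR-34c-3p 0.81, miR-34b-3p 0.72, miR-34c-5p 0.65 and miR-34b-5p 0.57. In CPM, miR-34a-3p kept an r of 0.79, while miR-34b-5p had 0.23, miR-34c-3p 0.06, miR-34c-5p 0.04 and miR-34b-3p -0.14.

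In the F2 libraries the family was measured at lower depth, from 205194 to 3020311 miRNA UMIs with a median of 846338. The floor of 10 UMIs was then worth between 3.31 and 48.7 CPM, against 0.702 to 1.05 in the C3H mice. MiR-34a-5p was listed in all 53 libraries, from 19 to 272 UMIs with a median of 51, and 8 libraries had at least 100 UMIs. The 2 libraries after the highest had 188 and 183 UMIs. In CPM it ran from 28.2 to 356, with a median of 66.5.

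The other members had lower median counts, some of them close to the floor. MiR-34b-3p was listed at 0 in 2 of 53 libraries, with a median of 34 and a highest value of 72 UMIs. MiR-34c-3p was at 0 in 3 libraries, with a median of 22 and a highest value of 93 UMIs, and miR-34c-5p was at 0 in 8, with a median of 14 and a highest value of 71 UMIs. MiR-34b-5p was at 0 in 22 libraries and had a median of 11 UMIs, and miR-34a-3p was at 0 in 48 and reached 15 UMIs. As context, the median of all entries above 0 in the F2 table was 21 UMIs, so the miR-34b/c arms sat at typical low counts. MiR-34a-5p was above miR-34c-5p in 52 of 53 libraries and above miR-34b-3p in 43.

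**Figure D5:**
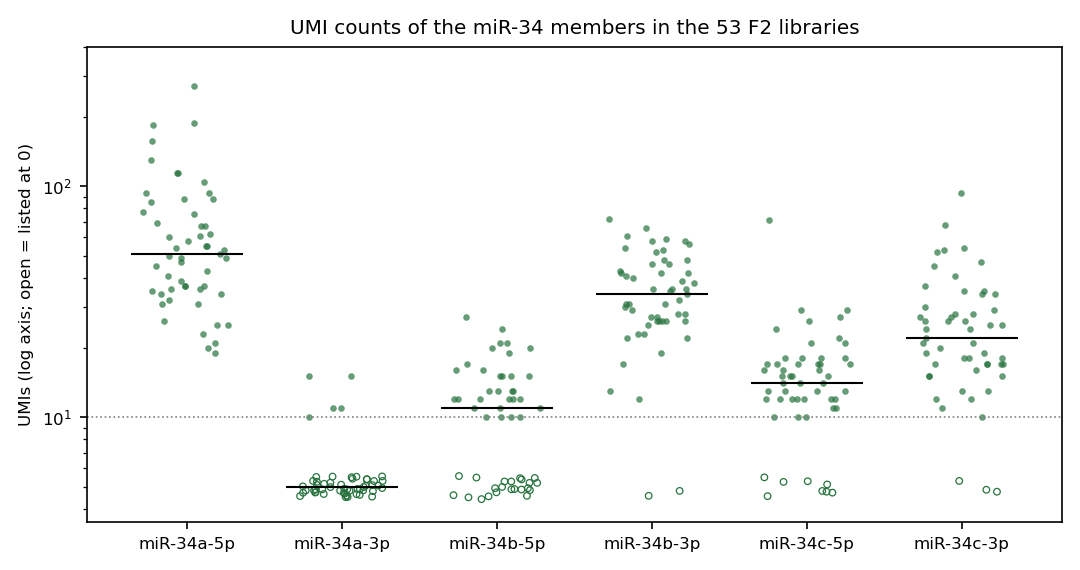
UMI counts (log axis) of the 6 members in the 53 F2 libraries, with a black line at the median, open points for values listed at 0 and a dotted line at the lowest listed value of 10 UMIs. MiR-34a-5p has a median of 51 UMIs and a longer upper range, to 272, than miR-34b-3p, whose median is 34.

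The balance of the hairpins stood apart between the tables. MiR-34a gave 20.8 to 71.4% of the family's UMIs in the F2 libraries, with a median of 40.4%, and its sum was above that of miR-34b/c in 13 of 53 libraries, whereas it was above in all 13 C3H mice. MiR-34b-3p had a median of 36.7 CPM in the F2 libraries and was above the highest C3H mouse (11.2) in 51 of 53. MiR-34c-3p had a median of 27.7 and was above the highest C3H mouse (11.4) in 48 of 53. MiR-34a-5p was below the lowest C3H mouse (88.9) in 41 of 53. MiR-34c-5p had a median of 16.9, inside its C3H range of 3.92 to 29.4, with 8 libraries above that range and 8 below. MiR-34b-5p was above the highest C3H mouse (3.21) in 31 of 53. Any library listing it must be, since the floor was worth at least 3.31 CPM. How often other miRNAs lay outside their C3H range was not counted. A level such as that of miR-34b-3p in the F2 table was not special to the family. Of the 241 other miRNAs with a mean of 4 to 20 CPM in the C3H mice, the F2 medians had a median of 21.2, and 54 were at or above that of miR-34b-3p. Strain cross, sex, bleeding site, time and depth all differ between the tables, so these values stand side by side without a test, and their causes cannot be told apart.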

How the data were processed

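Plasma small RNA libraries (QIAseq miRNA kit) of 13 C3H mice and 53 F2 libraries were used. Per the labels and methods, the authors quality-checked reads with FastQC, aligned them with Bowtie2 to GRCm38, annotated miRNAs by miRBase and collapsed UMIs. The deposited values are raw UMI counts per miRNA, not normalized, with the counts of UniSP2 and UniSP4. C3H columns were mapped to mice by name. F2 column names show only the group.

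HCC and non-HCC mice were compared with edgeR 4.0.16 in R 4.3.3 (quasi-likelihood test, library scale the mean of both spike-ins, a minimum of 5 UMIs in 5 or more mice, Benjamini-Hochberg adjustment over 1452 miRNAs, threshold 0.05). Since no value lies between 0 and 10, the filter acts as one of 10. UniSP2 alone as the scale gave nearly the same result for miR-34a-5p (2.81, adjusted p of 0.058, edgeR). Ratios within a mouse used exact two-sided permutation of the mice with scipy 1.17.1. Alternatives used limma 3.58.1, DESeq2 1.42.0, other scales and filters, a replicate block and each mouse left out. The fit was tested on simulated counts of 1098 miRNAs, where 52.4% of 147 changed 8-fold were recovered, 100% with the right sign. UMIs remove amplification copies, and with 8 and 5 mice the spread between mice sets the precision.

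The members and lists were chosen with earlier results of these data known. Named miRNAs are the 6 members, those with the same seed, the 5 most like miR-34a-5p by Pearson r of spike-in levels, members of the p53-linked, liver, red cell, platelet and leukocyte, and multiciliated lists, and miR-122-5p. Genes were placed by GENCODE M21 on GRCm38, and sequences are from RefSeq. The planned correlation of miR-34a-5p with other members across HCC mice was not given, as these mice fell into a high and a low cluster of under 6 mice each.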

Additional observations from a re-analysis of the deposited data

Results flagged for a closer look

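Of 16 sets of values searched (6 members and 2 ratios in 2 groups), 4 held a mouse far from the others, where chance gives about 1 in 20. MiR-34a-3p was highest in non-HCC mouse 4, with a spike-in level of 3.59 against 0.39 in the next mouse, which reflects 14 UMIs against a count listed at 0. For the same reason the log2 ratio of miR-34a-5p over miR-34a-3p was lowest in that mouse, at 6.69 against 9.93 in the next non-HCC mouse. In HCC mice that arm ratio was lowest in mouse 4, at 7.26 against 8.96 in the next, where miR-34a-3p reached its highest count of 22 UMIs.

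The log2 ratio of miR-34a over miR-34b/c was highest among non-HCC mice in mouse 5, at 2.81 against 1.74 in the next. This mouse had 1653 UMIs of miR-34a-5p, within the range of the other non-HCC mice, and the lowest non-HCC counts of miR-34b-3p (30 UMIs) and miR-34c-3p (52 UMIs).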

How the results depend on the processing

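The fold change of miR-34a-5p was above 0 under each alternative, and its adjusted p ran from 0.0036 to 0.301. It passed the threshold with UniSP4 alone (2.78), total miRNA UMIs (1.81), DESeq2's own (1.83) and spike-in (2.81) size factors and no filter (2.81), and without HCC mouse 3, 7 or 8. Leaving out single mice gave fold changes of 2.37 to 3.09. The other 5 members passed under none of the alternatives run. With TMM factors, total miRNA UMIs and DESeq2's own size factors, in that order, the fold changes turned to -0.69, -0.86 and -0.62 for miR-34b-5p, -0.59, -0.47 and -0.52 for miR-34b-3p, -0.26, -0.31 and -0.21 for miR-34c-5p, and -0.29, -0.18 and -0.23 for miR-34c-3p, and limma gave -0.35 for miR-34c-5p. The filter of 20 UMIs left miR-34a-3p and miR-34b-5p untested, as did 5 of the 13 sets without 1 mouse for miR-34b-5p, and DESeq2 with spike-in factors gave both no adjusted p.

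Of all miRNAs, 173 were higher with DESeq2's own factors, 181 with DESeq2 on spike-ins and 54 with limma, against 109, and 44 to 157 without 1 mouse. Without HCC mouse 2 there were 65, and without non-HCC mouse 1, 2, 3 or 4 there were 44, 47, 47 and 53. Lower in HCC were 32 with TMM factors, 32 with total UMIs, 49 with DESeq2's own factors, 2 with DESeq2 on spike-ins and 1 with UniSP4, against 0. TMM and total UMIs lowered the median of all fold changes from 0.78 to 0.17 and 0.37. The cause was not tested.

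The replicate numbers share no litter, batch or day in the labels, and same-numbered mice did not deviate together (correlations of -0.13 to 0.07, 0 of 5 best with their own number). With the replicate block miR-34a-5p was at 2.50 with an adjusted p of 0.0038 in edgeR, and 145 miRNAs were higher. Exact permutation within the 5 numbered pairs cannot go below 0.0625, the value it gave for miR-34a over miR-34b/c (1.88) and for miR-34a-5p over miR-34c-5p (1.92). Without single mice these 2 ratios differed by 1.47 to 2.00 and by 1.71 to 2.29. The arm ratio ran from -1.19 to -0.11 without single mice, and turned to 0.65 with 9 UMIs added. The summed pairs, the miR-34c-5p ratio and levels in CPM were chosen after seeing the data.

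In the F2 libraries the median of miR-34a-3p was 0 over all libraries and 16.9 CPM over the 5 that listed it, and the log2 range of miR-34a-5p was 3.63 in CPM and 4.70 on the spike-in scale. The floor of 10 UMIs limits which differences of the miR-34b/c arms can be seen in F2 libraries. The alternatives for the correlation across HCC mice (CPM and TMM levels) were not run, since no correlation was given.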
